A study of Mus musculus with 8 samples.

Results

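The genes described here are the 6 testis-specific serine kinase genes Tssk1 to Tssk6 and Tsks, which encodes a protein that these kinases bind and phosphorylate. They were chosen by name, and all 7 had a row among the 14853 genes of the authors' comparison. These genes and the gene lists set beside them were chosen with earlier results of these data known, so shares called are descriptions. RNA was sequenced from undifferentiated spermatogonia, the early germ cells among which sperm stem cells are found, sorted from C57BL/6 mice of 8 to 12 weeks on day 7 after tamoxifen. The sort took cells with high surface MCAM, without KIT and with tdTomato fluorescence. One group of 4 samples was Tert CreER/flox, in which a loxP-flanked allele of the telomerase gene Tert lies opposite a CreER allele, and the other group of 4 was Tert CreER/+, with a normal allele in that place. All 8 samples therefore carried 1 CreER allele at Tert, 1 Rosa26 allele with a loxP-stop tdTomato reporter and the tamoxifen treatment. CreER is a Cre recombinase that acts once tamoxifen is given, and tdTomato marks cells in which it has acted, so the values describe those cells. The labels do not say whether each sample was a separate mouse, and without that the tests measure only the spread between these samples.

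Testis-specific serine kinases are small protein kinases made late in male germ cell development, mainly in spermatids, the haploid cells that reshape into sperm. Their catalytic domain places them near the AMPK family, and loss of individual members in mice is known to disturb sperm shape and male fertility. In spermatids TSKS gathers in the chromatoid body, a granule of RNA and protein, and around the centrioles that carry the sperm tail. Undifferentiated spermatogonia stand at the other end of this path, several divisions and the whole of meiosis before spermatids.

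The family is a set of related sequences, and Tssk1 and Tssk2 are the closest pair. Both are genes of a single exon on the plus strand of chromosome 16, with Tssk1 at 17894203 to 17895653 and Tssk2 at 17898637 to 17900024 (GRCm38, RefSeq), a gap of 2.98 kb. Their coding sequences, of 1095 and 1074 bases in GENCODE M21, were 76.2% identical in a global alignment, whereas the other kinase pairs were 44.4% to 55.3% identical. The lines below show why reads of the pair can be hard to separate: the longest run of coding bases that Tssk1 and Tssk2 share without a difference is 113 bases. That run encodes a stretch of the catalytic domain that holds the catalytic loop. The most similar windows of the same length in Tssk5 and Tssk6, found without gaps, follow, with capitals at bases that differ from Tssk1.
Tssk1: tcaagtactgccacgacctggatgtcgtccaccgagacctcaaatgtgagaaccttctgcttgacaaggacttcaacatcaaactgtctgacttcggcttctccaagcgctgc
Tssk2: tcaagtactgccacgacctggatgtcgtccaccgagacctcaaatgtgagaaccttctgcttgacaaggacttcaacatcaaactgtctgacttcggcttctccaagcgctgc
Tssk5: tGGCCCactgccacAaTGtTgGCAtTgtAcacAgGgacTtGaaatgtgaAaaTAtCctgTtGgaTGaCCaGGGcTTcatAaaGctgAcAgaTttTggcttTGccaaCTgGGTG
Tssk6: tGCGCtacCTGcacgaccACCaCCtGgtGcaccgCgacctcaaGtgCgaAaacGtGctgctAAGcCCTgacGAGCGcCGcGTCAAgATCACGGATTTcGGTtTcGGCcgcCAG

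In the genome (GRCm38, 5′ to 3′ on the gene's strand) the Tssk1 run is chr16:17894723-17894835 and the Tssk2 run is chr16:17899105-17899217, both on the plus strand. The Tssk6 window is chr8:69902675-69902787 on the plus strand and differs from Tssk1 at 59 of 113 bases. The Tssk5 window differs at 47 bases and lies on the minus strand between 76373168 and 76373674 of chromosome 15, with 394 intronic bases inside that span. Of the 50-base words of the Tssk2 transcript, 125 of 1339 (9.34%) also occur in Tssk1, so a read of that length from there could belong to either gene. The longest transcripts of Tssk3, Tssk4, Tssk5 and Tsks shared no 50-base word with the transcript of any other gene. For Tssk6, 326 of 1286 such words (25.35%) occur in Ndufa13, a gene of respiratory complex I on the opposite strand whose first exon overlaps 375 of the 1335 bases of the single Tssk6 exon. The sources used here do not say whether the authors counted by strand, so reads of Ndufa13 could count for Tssk6.

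All values below are those of the authors' deposited table, in which the groups are compared by the Wald test of DESeq2. A log2 fold change is of CreER/flox over CreER/+, given with its standard error (SE), and with the 95% interval that a normal distribution with that SE gives. Mean counts are normalized counts averaged over all 8 libraries. Values for single libraries were not used here, so whether the groups overlap in any gene was not tested. The direction is read from the name of the table, which sets flox against WT. No sample is labelled WT, so that the CreER/+ group is the denominator of every fold change is an assumption. By the authors' deposited table Tert itself did not pass the test, at 0.29 (SE 0.26, adjusted p 0.595). The sources used here do not name the exons that are removed, so Tert checks neither the labels nor the direction.

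Tsks and the tandem kinase genes Tssk1 and Tssk2 were lower in the CreER/flox samples, and the other 4 kinase genes had estimates below 0 that did not pass the test. At an adjusted p of 0.05 the authors' deposited table called 3 of the 7 genes, namely Tsks, Tssk1 and Tssk2, against 5.36% of all genes. All 3 were lower, as were 3.42% of all genes, and none was higher, as were 1.94%. The log2 fold changes of the 7 genes ran from -2.09 to -0.70 with a median of -1.18, beside a median of 0.00071 over the whole table. At a threshold of 0.01, 2 of the 7 (Tsks and Tssk1) were lower, against 1.2% of all genes, and at 0.1 it was 6 of the 7 (all but Tssk4), against 5.29%. At an unadjusted p of 0.05 all 7 were lower, against 10.5% of all genes. None of the 95% intervals reached 0, and all 21 pairs of intervals overlapped. Tssk5, at a mean count of 10.7, lies near the lowest of the table, 10.4. It may have a row only through the group where it was higher, so its value adds no support to these counts. A difference in response between members was not tested, since the covariance between genes is not in the table.

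**Figure D1:**
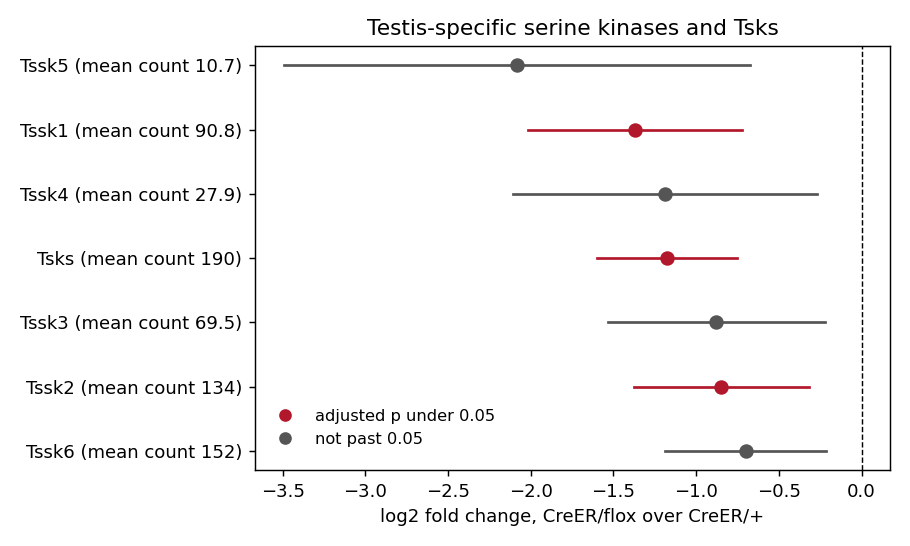
Log2 fold change (x axis, CreER/flox over CreER/+) of each kinase gene and of Tsks (y axis, with its mean normalized count). Points are the authors' estimates, lines the 95% intervals and red marks an adjusted p under 0.05. All 7 intervals lie below 0, and the widest is that of Tssk5, which has the lowest mean count.

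Tssk1, which encodes a spermatid kinase that binds TSKS, fell by 1.37 on the log2 scale per the authors' deposited table (SE 0.33, adjusted p 0.00351, mean count 90.8). This is a 2.58-fold lower level, with an interval from -2.02 to -0.72. Tssk2, its tandem neighbour, fell by 0.85 per the authors' deposited table (SE 0.27, adjusted p 0.0381, mean count 134), or 1.80-fold. The pair thus moved the same way, and how the authors assigned reads from the shared stretch printed above is not stated. Loss of both genes together is known to leave male mice infertile.

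Tssk3, which encodes a short kinase of little more than the catalytic domain, stood at -0.88 per the authors' deposited table (SE 0.34, adjusted p 0.0984, mean count 69.5) and did not pass the test. Tssk6, also called Sstk, acts in the packaging of sperm DNA and in fusion with the egg. It stood at -0.70 per the authors' deposited table (SE 0.25, adjusted p 0.0708, mean count 152), nearest to 0 of the 7. Ndufa13, whose exon it overlaps, stood at 0.17 per the authors' deposited table (SE 0.08, adjusted p 0.206) at a mean count of 867. The overlapping gene was thus more abundant and on the other side of 0. Its part in the Tssk6 value was not tested.

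Tssk4, whose kinase phosphorylates the tail protein ODF2, stood at -1.19 per the authors' deposited table (SE 0.47, adjusted p 0.112, mean count 27.9). Tssk5 had the largest estimate of the family, -2.09 per the authors' deposited table (SE 0.72, adjusted p 0.0600), at a mean count of 10.7 that lies close to the lowest mean count of the table, 10.4. Its interval ran from -3.49 to -0.68. At so low a mean count Tssk5 may have a row only through the group where it was higher, which favours a large estimate. Only 10 of the 14853 genes had a lower log2 fold change than Tssk5, whereas 570 had a lower Wald statistic, which takes the error into account.

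Tsks, the substrate, gave the firmest value. Per the authors' deposited table it fell by 1.18 on the log2 scale (SE 0.22, adjusted p 4.57e-05, mean count 190), or 2.26-fold, with an interval from -1.60 to -0.75. It was also the most deeply counted of the 7, and its Wald statistic of -5.45 was exceeded on the lower side by 10 genes of the whole table, compared with 97 for Tssk1 and 421 for Tssk2. Tsks lies on chromosome 7 (44929472 to 44958041, RefSeq), apart from every kinase gene.

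Levels between the genes can be compared only per length. Per kb of the longest GENCODE M21 transcript, the mean count was 114 for Tssk6, 103 for Tsks, 96.8 for Tssk2, 54.3 for Tssk3, 24.5 for Tssk1, 16.5 for Tssk4 and 5.20 for Tssk5. The median gene of the table stood at 65.6 per kb, so Tssk6, Tsks and Tssk2 lay above it and Tssk5 at the 5.31 percentile. The place of Tssk1 depends on the gene model, since the GENCODE transcript is 3700 bases long and the RefSeq gene 1451 bases, which gives 62.6 per kb. The SEs of the 7 genes were 1.16 to 1.42 times the median SE of the 500 genes nearest in mean count, with a median of 1.31.

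**Figure D2:**
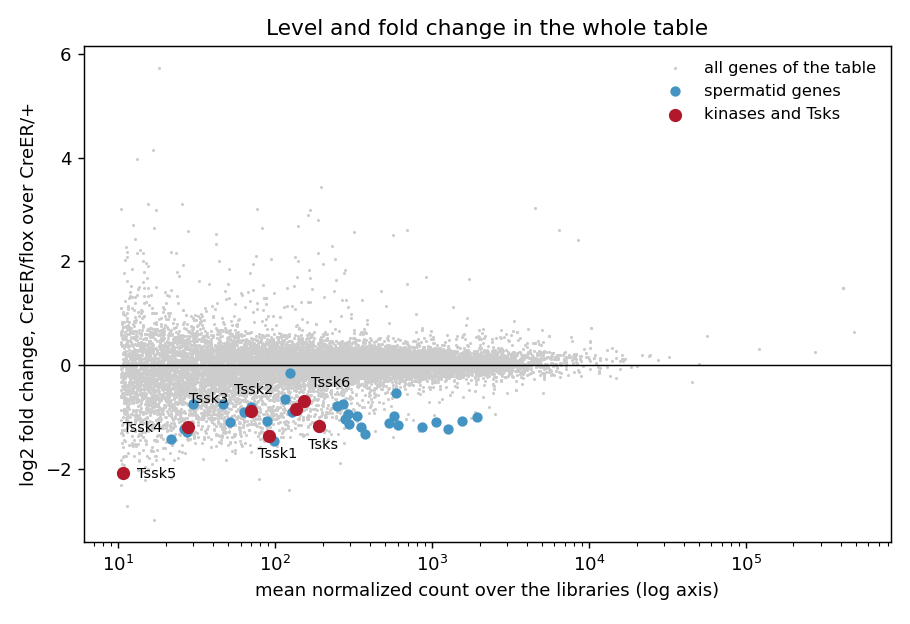
Mean normalized count (x axis, log scale) against log2 fold change (y axis, CreER/flox over CreER/+) for all 14853 genes in grey, 30 spermatid genes in blue and the kinases with Tsks in red. The red points span mean counts of 10.7 to 190 and lie among the blue points, except Tssk5 at -2.09.

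The genes of proteins that regulate the kinases or are regulated by them did not move as one. Of 12 such genes, 2 (16.7%) were called lower and none higher per the authors' deposited table, with a median of -0.037. Of all genes, 3.42% were called lower and 1.94% higher. Both called genes encode sperm tail proteins that are kinase substrates: Spag16, of the central pair of the axoneme (-0.91, SE 0.23, adjusted p 0.00632), and Odf2, of the outer dense fibres (-0.82, SE 0.26, adjusted p 0.0349), both per the authors' deposited table. The other 10 did not pass, at values from -0.79 for Izumo1, of sperm and egg fusion, to 0.42 for H2ax, a histone variant gene (SE 0.25, adjusted p 0.346), per the authors' deposited table. Ppp1cc, which encodes the phosphatase found in a complex with TSKS and TSSK1, stood at 0.067 (SE 0.06, adjusted p 0.619) per the authors' deposited table. Hsp90aa1 and Hsp90ab1, the chaperones on which the kinases depend, stood at 0.10 and 0.17 (adjusted p 0.301 and 0.137) per the authors' deposited table. Pdpk1, whose kinase can activate TSSK3, stood at -0.14 (SE 0.09, adjusted p 0.403) per the authors' deposited table. Tsacc, a co-chaperone that activates TSSK6, was measured at a mean count of 30.7 with a value of -0.10 (SE 0.37, adjusted p 0.923) per the authors' deposited table. Its interval, from -0.83 to 0.62, held 0 and the Tssk6 value of -0.70, but not the median of the 7 genes, -1.18. A difference from them was not tested.

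Kinases related to the family by sequence were not lower as a group. Among 18 genes of AMPK-related kinases, a list that includes their activator Stk11, the authors' deposited table had none called lower and 1 called higher, the microtubule affinity kinase gene Mark4 (0.44, SE 0.13, adjusted p 0.0162), with a median of -0.039. Among 11 other kinases enriched in testis, 1 was called lower per the authors' deposited table, Stk33 (-1.13, SE 0.30, adjusted p 0.0104), a kinase needed for the sperm tail, and the median was -0.23. Of all genes, 3.42% were called lower and 1.94% higher. Hipk4, a kinase of spermatids needed for head shape, stood at -1.03 (SE 0.45, adjusted p 0.160) and Mak, a kinase of male germ cells, at -0.67 (SE 0.25, adjusted p 0.0916) per the authors' deposited table, with a p above the threshold.

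Genes of the cell type in which the kinases are normally made had like values. All 30 spermatid genes, a list without the kinases, had rows and were below 0 per the authors' deposited table, with a median of -1.06. Of these, 10 (33.3%) were called lower, against 3.42% of all genes. The SEs of the list were wide for their counts, at a median of 1.57 times that of genes near in mean count. The summed mean count of the list was 12248, and all of its members were detected, although the sort was for spermatogonia. The called spermatid genes of smallest p by the authors' deposited table were Odf1, a structural gene of the sperm tail (-1.14, SE 0.22, adjusted p 0.000125), Txndc2, a sperm thioredoxin gene (-1.09, SE 0.24, adjusted p 0.00119), Spata18 (-1.04, SE 0.23, adjusted p 0.00134) and Spem1, needed for shedding of sperm cytoplasm (-1.47, SE 0.33, adjusted p 0.00144). Of the 7 genes described here, 4 lay below the median of that list and 3 above it, and 6 lay within its range, with Tssk5 below it. In bulk RNA, fewer cells of a type and less RNA per cell cannot be told apart, and the part of spermatid RNA in the values of the kinases was not tested.

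Markers of the earlier germ cell stages were measured beside these. The 20 genes of undifferentiated spermatogonia all had rows, with a summed mean count of 32238, a median log2 fold change of 0.00048 and none called per the authors' deposited table. Nearest to a call by the authors' deposited table were Ret (-0.23, SE 0.08, adjusted p 0.0798) and Zbtb16 (-0.18, SE 0.07, adjusted p 0.0875). The 10 differentiating spermatogonia genes had a median of -0.10 and none called, and nearest to a call by the authors' deposited table were Dmrtb1 (-0.91, SE 0.37, adjusted p 0.126) and Sohlh2 (0.23, SE 0.10, adjusted p 0.175). Of 25 spermatocyte genes, 2 (8.0%) were called lower per the authors' deposited table, against 3.42% of all genes. They were Piwil1 (-0.73, SE 0.14, adjusted p 0.000111) and Sycp2 (-0.53, SE 0.15, adjusted p 0.0158), and the median of the list was -0.090. Within the spermatocyte list, 5 genes lay below -0.5 and 10 lay above 0. Values ran from -0.96 for Ldhc (SE 0.36, adjusted p 0.0944) to 0.28 for Hormad1 (SE 0.13, adjusted p 0.216) per the authors' deposited table. Some genes of that list were thus as low as the kinases. The medians of these 3 lists lay nearer to 0 than the value of any kinase gene or of Tsks, and the difference was not tested.

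Markers of somatic testis cells were few. Rows were found for 6 of 12 Sertoli, 1 of 7 Leydig, 3 of 6 myoid, 6 of 7 endothelial, 3 of 9 leukocyte and 5 of 6 erythroid genes, with summed mean counts of 429, 46.4, 122, 362, 42.4 and 300.4. Their median log2 fold changes per the authors' deposited table were 0.16, -0.47, -1.05, 0.037, 0.033 and 0.93 in that order. The authors' deposited table called only the Sertoli gene Trf higher (0.62, SE 0.15, adjusted p 0.00255) and the smooth muscle actin gene Actg2 lower (-1.17, SE 0.37, adjusted p 0.0340). Of all genes, 1.94% were called higher and 3.42% lower. For the lists without a call, the genes nearest to one by the authors' deposited table were Star of Leydig cells at -0.47 (adjusted p 0.453), the endothelial Tek at -0.38 (adjusted p 0.399), the leukocyte gene Cd3e at 0.90 (adjusted p 0.282) and the globin gene Hbb-bt at 1.07 (adjusted p 0.717).

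**Figure D3:**
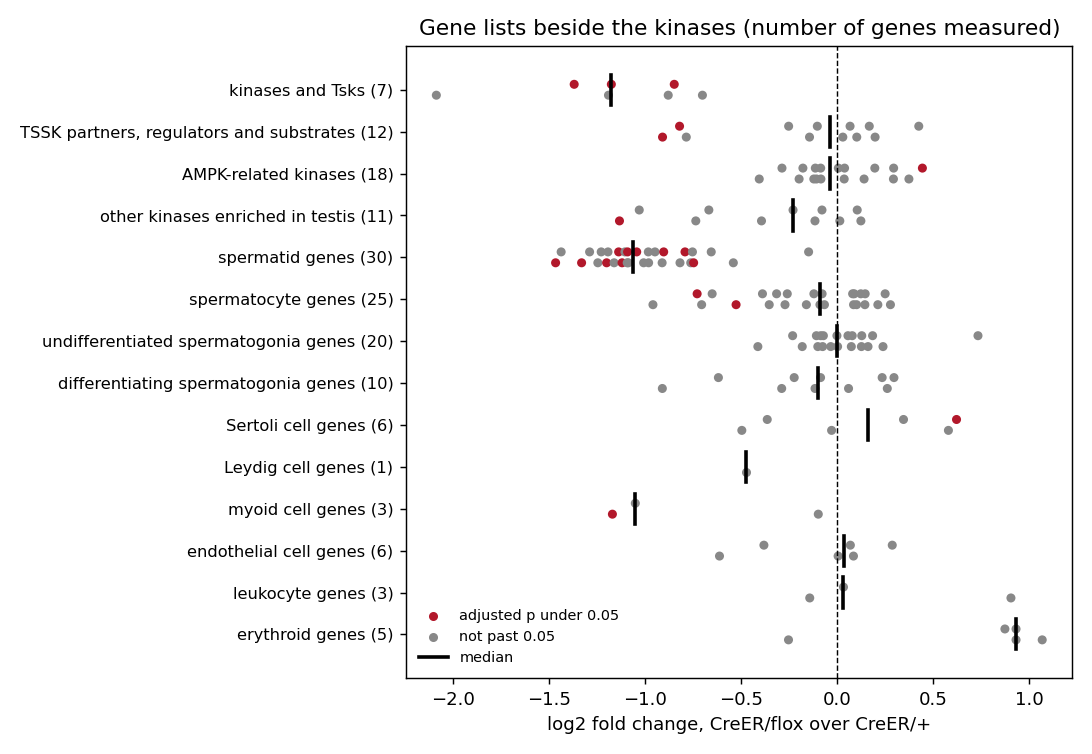
Log2 fold change (x axis, CreER/flox over CreER/+) of the genes of each list (y axis, number measured in brackets). Points are genes, red where the adjusted p is under 0.05, and bars are medians. The kinases and Tsks (median -1.18) lie at values like those of the spermatid genes (-1.06), and the related kinases (-0.039) lie around 0.

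Most genes beside the 7 were near 0. Within 200 kb of any of the 7 genes lay 115 other genes of the table, with a median log2 fold change of 0.036, of which 3 (2.61%) were called lower and 6 (5.22%) higher, against 3.42% and 1.94% of all genes. In the tandem pair, the flanking genes Dgcr2 and Ess2 stood at -0.079 (SE 0.11, adjusted p 0.748) and 0.15 (SE 0.11, adjusted p 0.466) per the authors' deposited table. The 2 kinases between them were thus lower while the genes on either side did not pass the test. In GENCODE M21, Dgcr2 (mean count 751) shares 63 of the 3700 exonic bases of Tssk1, on the opposite strand. Unless reads were counted by strand, some reads of Dgcr2 could count for Tssk1. Around Tsks, Ap2a1 stood at -0.21 (SE 0.08, adjusted p 0.105) and the adjacent Cpt1c at 0.11 (SE 0.22, adjusted p 0.848) per the authors' deposited table, and Fuz on the other side at -0.097 (SE 0.14, adjusted p 0.761). Ap2a1 overlaps the RefSeq span of Tsks but not its GENCODE M21 span. All 6 genes called higher lay on that chromosome within 200 kb of Tsks. They were Scaf1 at a gap of 44.9 kb (0.37, SE 0.10, adjusted p 0.00738 by the authors' deposited table) and, at gaps of 167.5 to 169.3 kb, the ribosomal protein gene Rpl13a with the small RNA genes Snord35a, Snord34, Mir5121 and Snord32a. Rpl13a and these small RNA genes lie close together, so the 5.22% called higher does not count separate places.

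Of the adjacent or overlapping genes, the one with the lowest value lay at Tssk3. Fam229a, which overlaps its RefSeq span on chromosome 4, stood at -1.17 (SE 0.46, adjusted p 0.114, mean count 32.2) per the authors' deposited table, with a p above the threshold. In GENCODE M21 the spans do not overlap and the genes point away from each other, on opposite strands. Bsdc1 and Marcksl1, next on either side, stood at -0.083 and 0.056 (adjusted p 0.797 and 0.766) per the authors' deposited table. Near Tssk5 lie the 3 genes called lower, none adjacent to it: Spatc1, a germ cell centrosome gene (-1.37, SE 0.38, adjusted p 0.0139), Smpd5 (-0.90, SE 0.29, adjusted p 0.0430) and Plec (-0.54, SE 0.11, adjusted p 0.000140) per the authors' deposited table. Its adjacent genes Hgh1 and Mroh1 stood at 0.11 and -0.12 (adjusted p 0.827 and 0.493) per the authors' deposited table. For Tssk4, Tm9sf1 (-0.10), which overlaps its RefSeq span but not its GENCODE M21 span, did not pass the test per the authors' deposited table. Nor did the adjacent Ipo4 (-0.017) and Mdp1 (-0.056), or, for Tssk6, Cilp2 (0.036) and Gatad2a (-0.045).

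**Figure D4:**
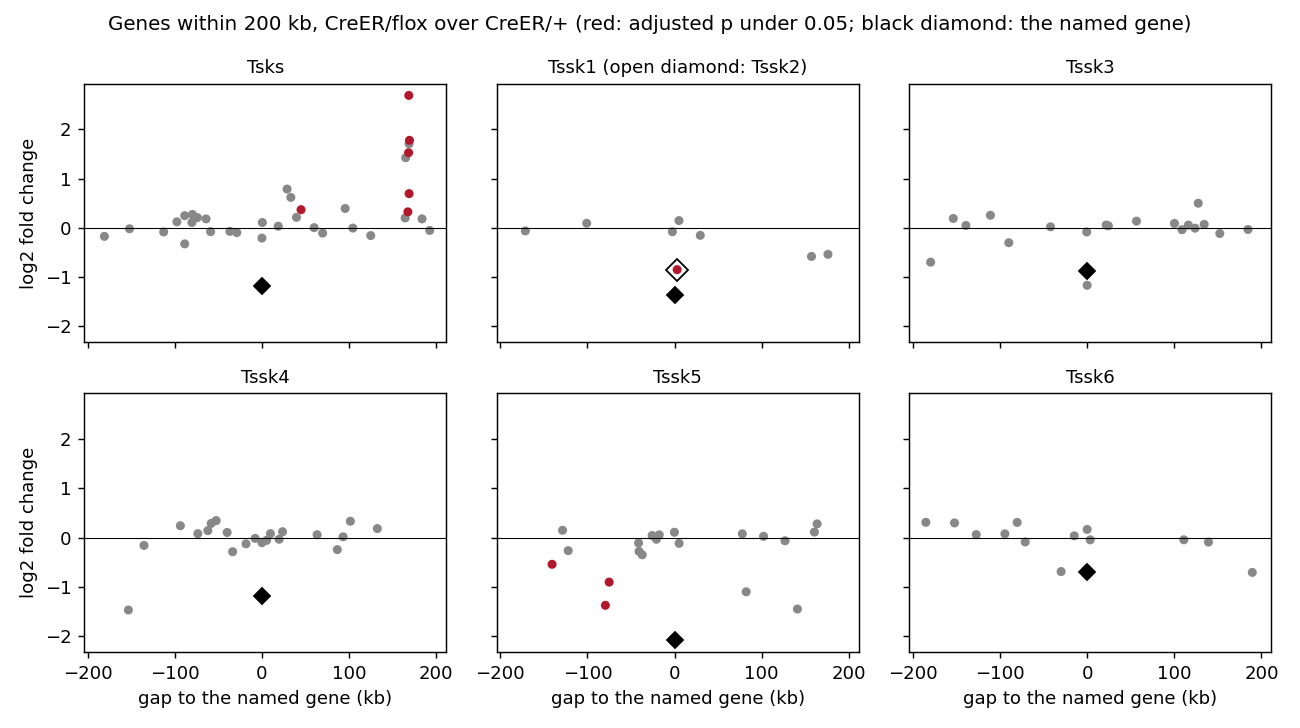
Gap in kb (x axis) from each named gene to the other genes within 200 kb, against their log2 fold change (y axis, CreER/flox over CreER/+). Black diamonds are the named genes, the open diamond is Tssk2 and red marks an adjusted p under 0.05. Most neighbours lie near 0 (median 0.036), and Tssk1 and Tssk2 lie below their neighbours.

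The 7 genes lie on 6 chromosomes, and the sequence before their starts was compared where the RefSeq promoter table (GRCm38.p6) held one, for 6 of the 7. Its starts for Tssk1, Tssk2 and Tssk6 are the outer ends of the gene spans, but those for Tsks, Tssk4 and Tssk3 lie 13.8 kb, 6.53 kb and 0.96 kb inside the RefSeq spans, so the windows of these 3 are not upstream of the whole gene. The 60 bases before the starts used for Tssk3 and Tssk6 lie wholly in GENCODE exons. In the 250 bases before the start used, on both strands, the cAMP response element TGACGTCA was in 0 of the 6, against 508 of 32851 promoters (1.55%). Its core TGACG, which lies within the full element, was in that of Tssk6 only (17.8% of all promoters), TATAAA was in none (12.4%), and CCAAT was in those of Tssk3 and Tssk4 (33.9%). Among promoters of the genes measured here, the shares were 2.53% for TGACGTCA, 25.1% for TGACG, 6.81% for TATAAA and 36.1% for CCAAT. These shares are descriptions of letters in 1 window and say nothing about binding. The stretches of 60 bases before the starts of the tandem pair are shown because the pair was called lower together. Capitals mark the longest run of bases that the 250-base windows of both share, GACAGTGCTGA, and a word before it, TGACTTCA, chosen after the sequences were read.
Tssk1: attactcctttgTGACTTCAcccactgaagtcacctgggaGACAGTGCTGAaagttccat
Tssk2: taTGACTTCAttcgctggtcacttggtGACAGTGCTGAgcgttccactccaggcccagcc

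These stretches are chr16:17894143-17894202 for Tssk1 and chr16:17898577-17898636 for Tssk2, both on the plus strand. The run of 11 bases begins 20 bases before the start of Tssk1 and 33 before that of Tssk2. With its reverse complement it is in 6 of 32851 promoter windows (0.018%), those of the pair included. It was picked because both windows hold it, so this share is no evidence of a shared element. TGACTTCA begins 48 and 58 bases before the starts, and with its reverse complement it is in 429 windows (1.31%), those of the pair included. The Tssk1 window also holds that reverse complement, 35 to 28 bases before the start, left in small letters above. Over their whole length the 250-base windows of Tssk1 and Tssk2 were 48.0% identical, and those of the other pairs of members 43.3% to 48.6% identical.

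The calls rest on the distribution given to the Wald statistic. Its bulk over all genes was 1.45 times as wide as the standard normal distribution that the authors' p values use. With this width divided out, none of the 7 passed (adjusted p 0.157 for Tsks) and 5 genes of the table did. At an unadjusted p of 0.05, 4 of the 7 (Tsks, Tssk1, Tssk2 and Tssk5) passed in that setting, against 6.64% of all genes. Read against a t distribution (6 degrees of freedom), none of the 7 passed (adjusted p 0.439 for Tsks) and no gene of the table did. At an unadjusted p of 0.05 all 7 passed there, against 11.1% of all genes. Both unadjusted counts include Tssk5, which may have a row only through the group where it was higher and adds no support to them.

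**Figure D5:**
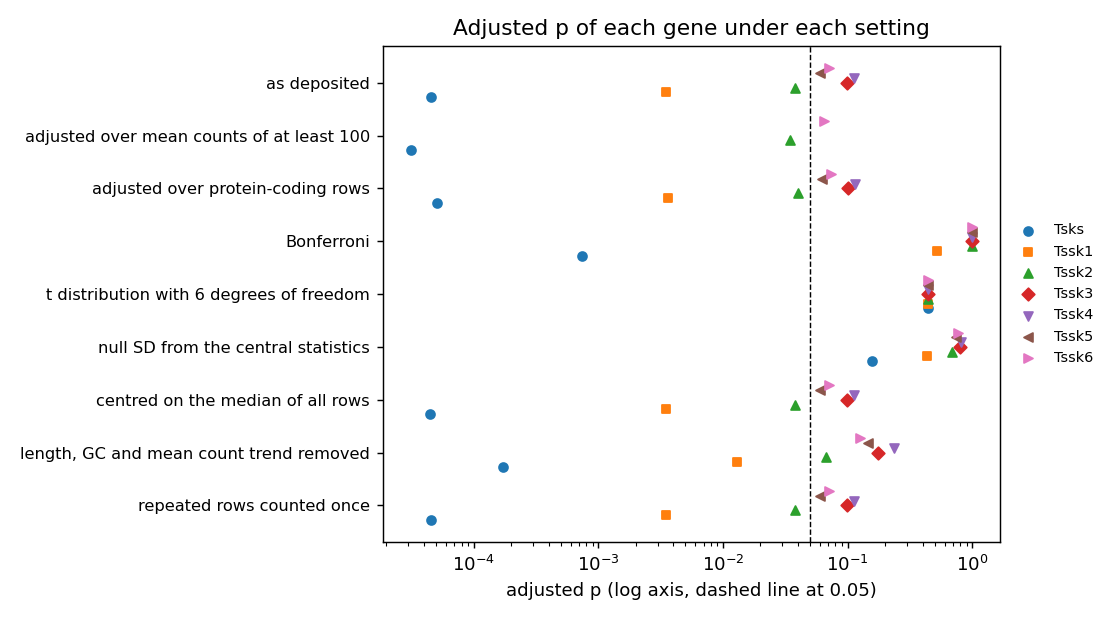
Adjusted p (x axis, log scale, dashed line at 0.05) of each gene (colour and marker) under the deposited setting and 8 alternatives (y axis). Tsks is left of the line in 7 of the 9 settings, and no gene is left of it with a t distribution or with the null width estimated from the data. The setting of mean counts of at least 100 holds only Tsks, Tssk2 and Tssk6.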

How the data were processed

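Total RNA of 8 sorted samples was sequenced with a stranded low-input kit, per the labels' protocols. Per the submitters' processing notes, the tools were DESeq2, TopHat2 2.0.4, Bowtie, Bowtie2 2.0.0-6 and Trim Galore, and the builds GRCm38 and mm10. The sources used here do not give the counting program, its strand setting, its annotation or its handling of multiple matches. The table deposited by the authors holds, per gene, a normalized mean count signal, a log2 fold change with its SE, a Wald score, and p-values and adjusted p-values. In the table, the deposited score equals the fold change over its SE within 2.58e-07, and the adjusted p-values match a Benjamini-Hochberg adjustment over 14853 genes within 7.41e-06. No model was fitted across libraries. Depth per library was not used here, so precision is given by the SEs. All mean counts are above 10.

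Members were matched by symbol. Entrez IDs matched RefSeq (GRCm38.p6) for 14828 genes, and GENCODE M21 gave a transcript length for 99.2%. Members, gene lists and tests were chosen with earlier results of these data known. A gene was called at an adjusted p under 0.05. Named genes were the members, Tert, the nearest or overlapping genes of each member, and, per list, up to 4 called genes by smallest p, or up to 2 of smallest p where none was called. The genes called near Tssk5 and Tsks but not adjacent to them, the further partners in the first list, Mak, Hipk4, Ldhc and Hormad1 were named after their values were seen. Steps were tested on simulated data. Python 3.11.15, pandas 2.3.3, numpy 2.4.6, scipy 1.17.1, matplotlib 3.10.9 and Biopython 1.88 were used.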

Additional observations from a re-analysis of the deposited data

How the results depend on the processing

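All 7 genes stayed below 0 under each alternative that shifts the fold changes: the median of the members was -1.18 with centring on the median gene and -1.01 after removal of a trend in mean count, GC content and transcript length. In that last setting Tssk2 no longer passed (adjusted p 0.0673), while Tsks (0.000171) and Tssk1 (0.0129) did. Of the members, 6 passed at a threshold of 0.1 (5.29% of all genes were called lower there), 1 with Bonferroni adjustment (Tsks), 0 with a t distribution of 6 degrees of freedom and 0 with the null width from the data. At a threshold of 0.01, Tsks and Tssk1 passed. Over all genes, where 796 passed, the calls were 264 at 0.01, 1340 at 0.1, 528 with a log2 fold change of at least 0.5, 55 with Bonferroni adjustment, 0 with the t distribution (1652 at an unadjusted p of 0.05) and 5 with the null width (986 unadjusted). Other alternatives, including the count of repeated rows a single time, which was added after the data were seen, left the members called within 1.5 times. With adjustment over mean counts of at least 100, however, only 3 members were left to test. Tsks and Tssk2 passed there, Tssk6 did not, and Tssk1 was not among them. The median of the partners and substrates turned from -0.037 to 0.048 when only mean counts of at least 50 were kept. No paired analysis was possible because values per library were not used here, and for the same reason no library could be left out in turn. Tssk5, at a mean count of 10.7, is the member whose depth limits its value most, and it adds no support to the count at 0.1.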
